A study of Mus musculus with 9 samples.

Results

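The genes described here are the nuclear genes of the mitochondrial respiratory chain and ATP synthase, measured in bone marrow-derived dendritic cells (DCs). They were chosen by gene name: the Ndufa, Ndufb, Ndufc, Ndufs and Ndufv subunits and Ndufaf factors of complex I, the Sdh and Sdhaf genes of complex II, the Uqcr genes and *Cyc1* of complex III, the Cox4 to Cox8 subunits and *Cox10* to *Cox19* factors of complex IV, and the Atp5 genes of complex V. Of 112 names that match, 100 had 10 or more counts in at least 3 of 9 libraries, out of 55471 genes in the count table, and all 100 were among the 16260 genes tested. They comprise 36 subunits of complex I, 4 of complex II, 9 of complex III, 13 of complex IV and 17 of complex V, together with 20 assembly factors and *Cox7a2l*, a factor that joins complexes III and IV into supercomplexes. Bone marrow of wild-type, adult female C57BL/6 mice was cultured with GM-CSF, a cytokine that yields DCs, and the cells were then left unstimulated or were stimulated with LPS, a bacterial outer membrane component, or with IFN-β, a type I interferon, for 6 h. Each of the 3 groups had 3 libraries with the letters A, B and C, and the labels do not say whether these are separate cultures or mice, so p-values measure only the spread between these samples. Bone marrow cultures with GM-CSF can hold macrophage-like cells as well as DCs.

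The respiratory chain passes electrons from NADH (complex I) and succinate (complex II) through coenzyme Q to complex III, cytochrome c and complex IV, where oxygen is reduced, and complex V uses the proton gradient built on the way to make ATP. Most subunits are encoded in the nucleus, a smaller set in mitochondrial DNA, and complex II is nuclear only. Assembly factors are not part of the finished enzymes but insert their cofactors or hold their intermediates together. In DCs and macrophages, activation by LPS is known to shift ATP production from respiration towards glycolysis.

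The libraries held 33425803 to 43735199 counts assigned to genes, of which the 100 genes took 0.653% to 0.688% in unstimulated DCs, 0.402% to 0.446% with LPS and 0.459% to 0.526% with IFN-β. DC markers were present in every library, with a summed level of 4343 to 5199 CPM (reads of a gene relative to all reads of its library, after TMM scaling) in unstimulated DCs, 6110 to 6885 CPM with LPS and 4933 to 5202 CPM with IFN-β. The 5 macrophage markers summed to 1662 to 2104 CPM, 1864 to 2416 CPM and 2365 to 2692 CPM in the same order, and *Csf1r*, the receptor of a macrophage growth factor, averaged 1101, 562 and 1055 CPM in unstimulated, LPS and IFN-β libraries. With LPS 3 of these 5 were higher and 1 (*Csf1r*) lower, and with IFN-β 2 (*Fcgr1* and *Mertk*) were higher and 0 lower. *Fcgr1* averaged 97.3, 446 and 567 CPM in the same order, while *Adgre1* averaged 158 CPM unstimulated and 165 CPM with IFN-β. Most of the DC sum came from *Cd74* and *Itgax*, at 2537 and 1375 CPM in unstimulated DCs. Such sums thus follow a few genes. The 6 neutrophil markers summed to 9.56 to 25.5 CPM, and T cell, B cell, erythroid and mast cell markers to at most 0.283 CPM, with the hemoglobin gene *Hbb-bs* at 0 in all libraries. In bulk RNA, fewer cells of a type and less RNA per cell cannot be told apart, and the part of the macrophage markers in the results below was not tested. *Il12b*, a cytokine gene induced by LPS, averaged 3.41 CPM in unstimulated DCs, 3615 CPM with LPS and 4.28 CPM with IFN-β. The IFN-β library A stood apart from the other IFN-β libraries. Its summed level per length over the 100 genes was 83.5% of the unstimulated mean, against 90.7% in library B and 97.2% in library C. Counts over the 100 genes, medians and summed levels with IFN-β are also given without it. Counts of single classes are given without it only in part, and medians of the assembly factors only for all together.

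Transcripts of the respiratory chain were abundant in unstimulated DCs. On the RPKM scale (CPM divided by the exon length in kilobases), the median level of the 100 genes was 21.3 RPKM against 2.88 RPKM over all tested genes with a known length, and 89 of the 100 lay above the latter. Subunits of complexes III and IV had the highest median levels, 45 and 47.1 RPKM, followed by complex II at 38.3, complex V at 30.8 and complex I at 19 RPKM. Assembly factors were far lower, with a median of 3.18 RPKM and a range from 0.392 RPKM for *Sdhaf3* to 20.3 RPKM for *Cox14*, a factor of complex IV. The highest single level was 187 RPKM for *Cox6b1*, a subunit on the outer face of complex IV. These levels depend on the gene models: with the length of the longest transcript in place of all exons, the medians were 84.6 RPKM for complex IV, 61.1 for complex V, 60.9 for complex II, 45 for complex III, 27 for complex I and 4.6 for the assembly factors, so that complex IV stayed first, complex I last of the complexes and the assembly factors lowest, while complexes II, III and V changed places.

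The 12 names below the filter include tissue isoforms. *Cox4i2*, the lung isoform of subunit IV, reached at most 4 counts in a library, *Cox6b2*, a testis isoform, at most 9 counts, and *Ndufa4l2* at most 7 counts. *Cox8b*, *Cox8c*, *Cox7b2*, *Ndufb11b* and a second entry for *Atp5o* had 0 counts in all 9 libraries, where 3 counts, the most that a 0 allows, equal 0.0686 to 0.0898 CPM of a library's total. The muscle isoforms *Cox6a2* and *Cox7a1* passed the filter at low levels, 0.425 and 1.69 RPKM in unstimulated DCs, against 126 and 70.6 RPKM for the ubiquitous *Cox6a1* and *Cox7a2*. The ubiquitous isoforms were abundant, with *Cox4i1* at 131 RPKM and *Cox8a* at 164 RPKM.

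After 6 h of LPS, more genes of the respiratory chain fell than rose, and the values spanned a wider range in assembly factors than in subunits. In the quasi-likelihood fit of edgeR, with p adjusted by Benjamini-Hochberg over all tested genes, 43 of the 100 were lower and 11 higher, where 35.4% of all tested genes were lower and 32.8% higher. Complex I had 18 of 36 subunits lower, complex II 3 of 4, complex III 4 of 9, complex V 7 of 17, and complex IV had 1 of 13 lower and 2 higher. The median log2 fold change was -0.19 over the 100 genes and -0.04 over all tested genes. The assembly factors *Ndufaf4*, *Ndufaf7*, *Sdhaf1*, *Cox15* and *Cox18* changed by 2-fold or more, whereas subunits ranged from -0.97 to 0.73 on the log2 scale. Assembly factors also had lower median levels than subunits. The share of such changes among all tested genes, or among genes of similar level, was not counted.

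With IFN-β, 33 of the 100 genes were lower and 6 higher, where 23.3% of all tested genes were lower and 23.6% higher, and the median log2 fold change was -0.17 against -0.02 over all tested genes. Without the IFN-β library A, 20 were lower and 6 higher, and the median was -0.10 against -0.02 over all tested genes. The shares of all tested genes called in that fit are not given. The lower count is thus not read as particular to these genes. By class, the medians without IFN-β library A were -0.09 for complex I, -0.06 for II, -0.17 for III, -0.06 for IV and -0.09 for V. The assembly factors together were then at -0.21. With the replicate letter as a block, 47 were lower (28.4% of all tested genes) and 6 higher. Of the 100 genes, 29 were lower with both stimuli and 5 higher with both by TMM (*Ndufs4*, *Ndufb1*, *Cox15*, *Cox17* and *Cox18*), 0 were called in opposite directions and 41 were called with neither. Over all tested genes these shares were 19.8%, 19.7%, 1.76% and 26.2% in the same order. Both comparisons share the unstimulated libraries. The log2 fold change was closer to 0 with IFN-β than with LPS in 64 of the 100. That share was not counted over all tested genes, so it is not read as particular to these genes.

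These counts depend on how the libraries are scaled. TMM factors, which correct for the room that strongly induced genes take up in a library, were 1.1814 to 1.2623 in unstimulated DCs, 0.7829 to 0.8409 with LPS and 0.9767 to 1.0198 with IFN-β. Scaling by library size only moved the median of all tested genes by -0.58 with LPS, by -0.31 with IFN-β and by 0.27 between IFN-β and LPS. By that scaling, 92 of the 100 genes were lower and 3 higher with LPS (60.9% and 17.1% of all tested genes), and 91 were lower and 3 higher with IFN-β (46% and 13.2%). Changes are therefore given relative to the bulk of genes, by TMM. Genes whose direction or call differs by library size are named in part and are otherwise given as counts per class.

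**Figure D1:**
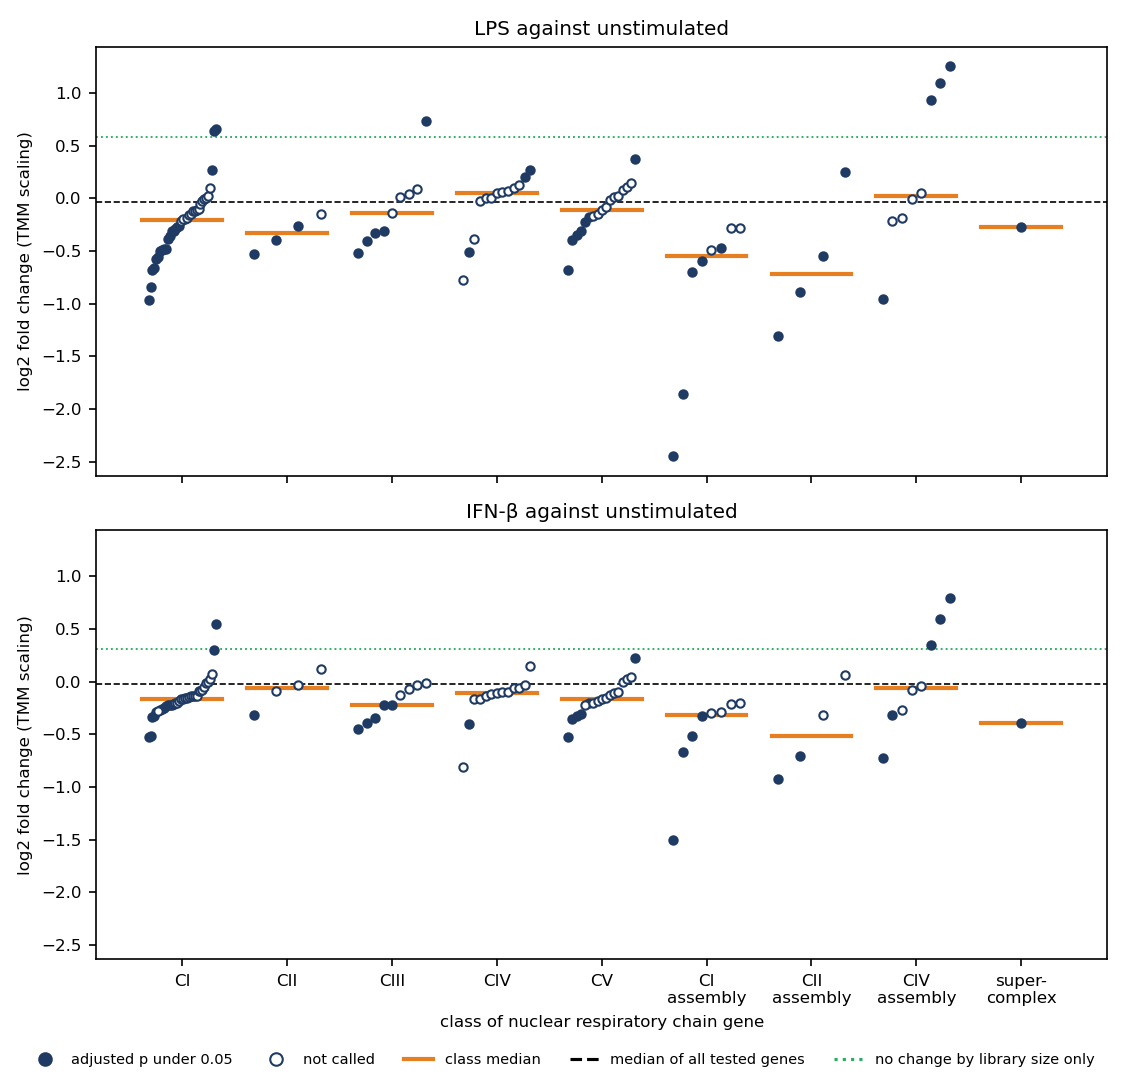
Log2 fold changes (y axis, TMM scaling) of the 100 genes by class (x axis; CI to CV are complexes I to V), with LPS above and IFN-β below; filled points passed an adjusted p of 0.05 in edgeR's test, orange bars are class medians, the dashed line is the median of all tested genes and the dotted line is where a gene would show no change by library size only. With LPS, complex IV subunits had a median of 0.05 and complex I assembly factors of -0.55; by library size only, points below the dotted line are falls, and 12 of the named genes with an LPS value above 0 by TMM are then below 0.

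**Figure D2:**
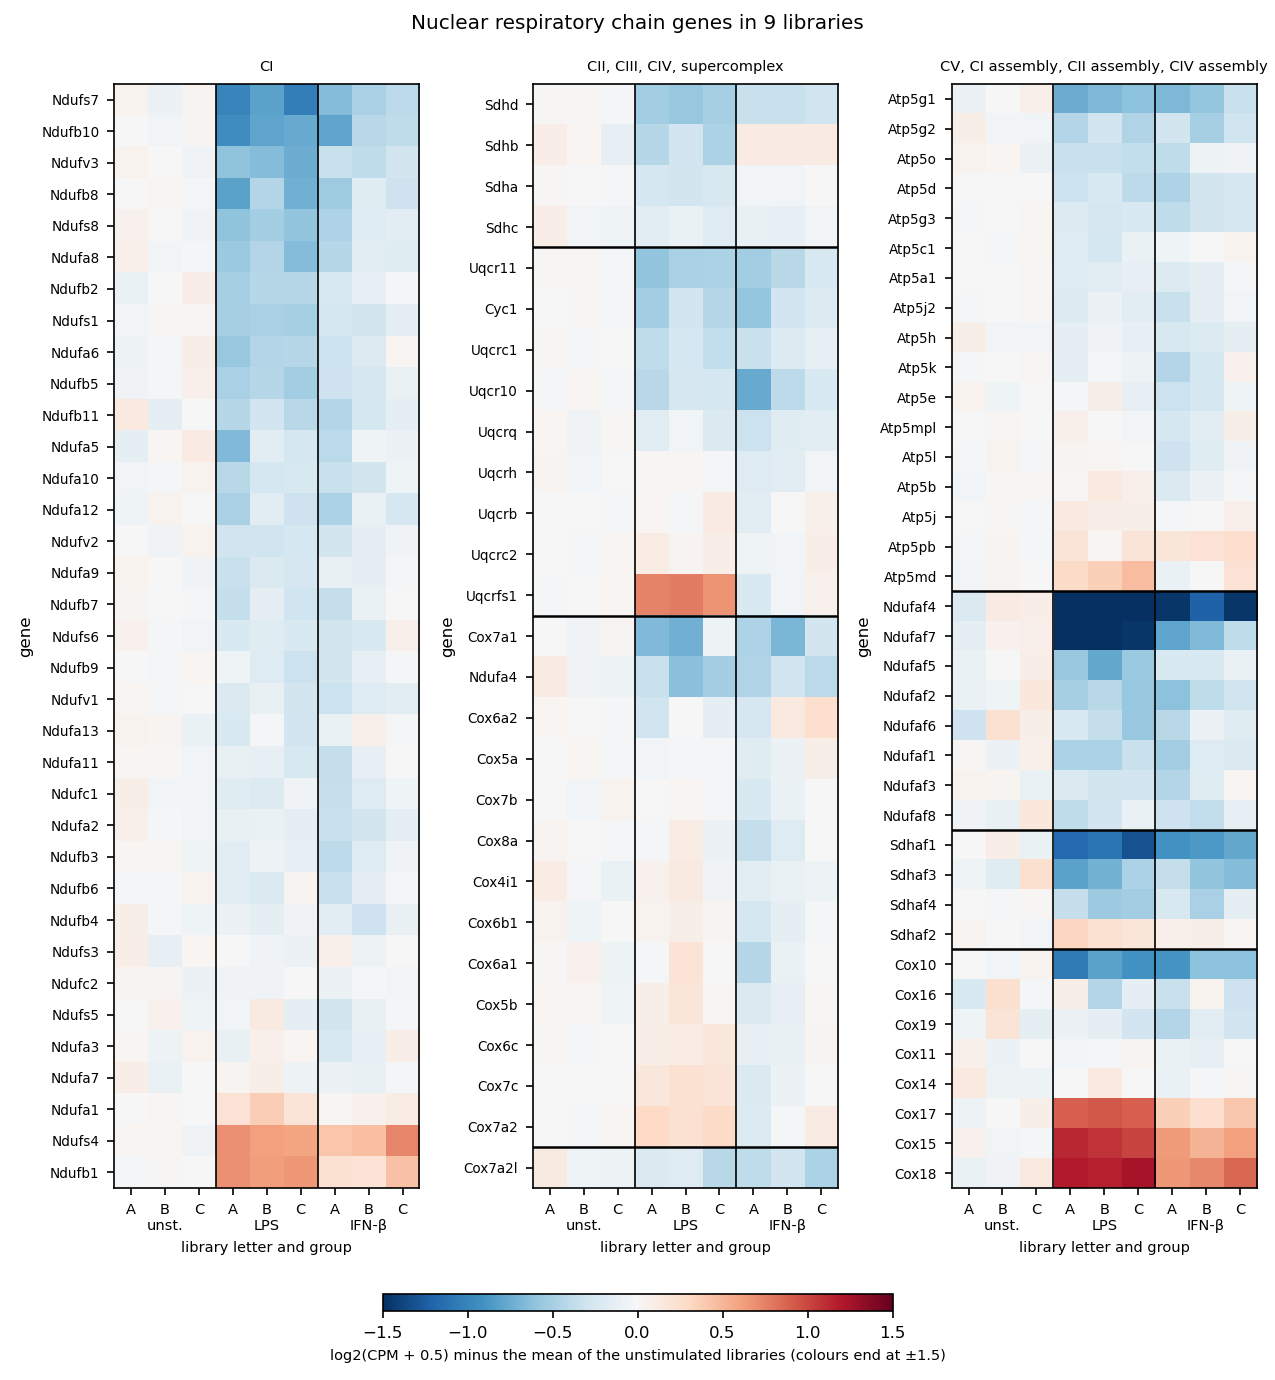
All but 1 of the 100 genes (rows, grouped by class and ordered by the LPS change) in every library (columns), coloured by log2(CPM + 0.5) minus the mean of the unstimulated libraries, TMM scaling, with colours ending at ±1.5. *Ndufaf4* and *Ndufaf7* are the darkest blue rows with LPS and *Cox15*, *Cox17*, *Cox18* and *Uqcrfs1* the reddest, while IFN-β library A is bluer than libraries B and C in most rows; by library size only, *Uqcrfs1* with LPS was at 0.15 and did not pass the test.

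In complex I, 18 of 36 subunits fell and 3 rose with LPS, with a median log2 fold change of -0.21. Among the 7 nuclear subunits of the catalytic core, which bind the flavin and the iron-sulfur clusters and pass electrons to coenzyme Q, 5 fell, and among the other 29 subunits 13 fell and 3 rose. *Ndufs7*, which carries the last iron-sulfur cluster before coenzyme Q, had 30.4, 27.4 and 30.1 CPM in unstimulated libraries A, B and C, 14.5, 16.5 and 14 CPM with LPS and 18.5, 20.7 and 22.2 CPM with IFN-β. The groups did not overlap, and LPS was lowest. Its log2 fold change was -0.97 ± 0.09 (SE; adjusted p = 4.5e-06) with LPS and -0.52 ± 0.09 (adjusted p = 9.7e-04) with IFN-β. The core subunits *Ndufs8* (-0.58 ± 0.09, adjusted p = 1.7e-04), *Ndufs1* (-0.49 ± 0.06, adjusted p = 2.4e-05), *Ndufv2* (-0.29 ± 0.07, adjusted p = 0.00328) and *Ndufv1* (-0.20 ± 0.07, adjusted p = 0.0226) also fell with LPS, while *Ndufs3* (-0.05 ± 0.08, adjusted p = 0.557) did not pass the test. With IFN-β, *Ndufv2* was at -0.16 ± 0.07 (adjusted p = 0.0801; 0.0258 with the replicate letter as a block). The LPS call of *Ndufv1* was lost without LPS library A, LPS library C or unstimulated library A.

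The accessory subunits went both ways. *Ndufb10*, a subunit of the membrane arm, had 33.4, 32.4 and 34.2 CPM in unstimulated libraries, 17.2, 19 and 19.6 CPM with LPS and 19, 24.9 and 25.5 CPM with IFN-β. It fell by 0.84 on the log2 scale with LPS (SE 0.11, adjusted p = 4.0e-05) and by 0.53 with IFN-β (SE 0.11, adjusted p = 0.00222). The subunits that rose with LPS by TMM were *Ndufb1* and *Ndufa1* of the membrane arm, and *Ndufs4*, a subunit beside the NADH-oxidising core whose loss causes a Leigh-like encephalopathy. *Ndufs4* had 30.7, 30.6 and 29 CPM in unstimulated libraries, 48.5, 46.3 and 45.5 CPM with LPS and 40.2, 41.3 and 50.5 CPM with IFN-β. All stimulated libraries were above all unstimulated ones, with a log2 fold change of 0.64 ± 0.09 (adjusted p = 6.8e-05) with LPS and 0.55 ± 0.09 (adjusted p = 4.9e-04) with IFN-β. By library size only these were 0.05 (adjusted p = 0.586) and 0.24 (adjusted p = 0.0305).

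*Ndufb1* had 39.7, 40.9 and 40.4 CPM in unstimulated libraries, 65.1, 62.5 and 63.4 CPM with LPS and 47.4, 46.6 and 54.7 CPM with IFN-β. It rose by TMM, by 0.66 ± 0.07 (adjusted p = 9.4e-06) with LPS and 0.30 ± 0.07 (adjusted p = 0.00518) with IFN-β, whereas by library size only the values were 0.08 and -0.01. Its exons overlap those of *Cpsf2* on the other strand, whose log2 fold changes were 0.76 and 0.43, and the part of *Cpsf2* reads in the count of *Ndufb1* was not tested. *Ndufa1* rose by 0.27 ± 0.07 with LPS (adjusted p = 0.00441), which is -0.32 by library size only. With IFN-β, 12 of the 36 subunits of complex I fell and 2 rose, and 19 fell with the replicate letter as a block. The count of 12 became 5 without IFN-β library A and 7 without unstimulated library A or B. By library size only, 34 of the 36 were lower and 0 higher with LPS, and 34 were lower and 1 higher with IFN-β.

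Of the assembly factors of complex I, 5 of 8 fell and 0 rose with LPS, with a median log2 fold change of -0.55, and with IFN-β 4 of 8 fell and 0 rose, with a median of -0.31. The count of 4 became 2 without IFN-β library A or unstimulated library C. All 8 had log2 fold changes below 0 in both comparisons. *Ndufaf4*, a factor of the early intermediate that holds the coenzyme Q binding subunits, fell most among the 100 genes. It lies at chr4:24898083-24905001 (GRCm38, forward strand) and had 8.23, 10.6 and 10.4 CPM in unstimulated libraries, 1.84, 1.69 and 1.81 CPM with LPS and 3.21, 3.9 and 3.2 CPM with IFN-β. Every LPS library was below every IFN-β library, and these were below every unstimulated one. The log2 fold change was -2.45 ± 0.14 with LPS (adjusted p = 1.1e-07), which is a level 5.47 times lower, and -1.50 ± 0.13 with IFN-β (adjusted p = 1.1e-05), 2.84 times lower.

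*Ndufaf7*, a methyltransferase needed to assemble complex I, had 5.45, 6.29 and 6.34 CPM in unstimulated libraries, 1.42, 1.66 and 1.87 CPM with LPS and 3.26, 3.61 and 4.5 CPM with IFN-β. The order of the groups was that of *Ndufaf4*, again without overlap. It fell by 1.86 on the log2 scale with LPS (SE 0.17, adjusted p = 2.4e-06) and by 0.67 with IFN-β (SE 0.15, adjusted p = 0.00419). *Ndufaf5*, which hydroxylates an arginine of *Ndufs7*, fell with LPS (-0.70 ± 0.12, adjusted p = 3.3e-04), *Ndufaf1* by 0.47 (SE 0.12, adjusted p = 0.00534) and *Ndufaf2* by 0.60 (SE 0.16, adjusted p = 0.00606), while *Ndufaf3*, the partner of *Ndufaf4*, was at -0.28 ± 0.13 (adjusted p = 0.0727). *Ndufaf2* shares 80.5% of its exon sequence words of 100 bases with other genes, so its count is uncertain.

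The promoter window of *Ndufaf4* is shown because this gene changed most and because the binding motif of NRF1, a transcription factor known for driving nuclear respiratory genes, occurs in it 3 times. The window (RefSeq, GRCm38.p6, chr4:24897833-24898132, forward strand) runs from 250 bases before to 50 after the RefSeq start. Capitals mark GCGCATGC or its reverse complement. The matches begin 113 and 111 bases before the start, where the 2 matches, one on each strand, overlap, and at base 2 of the transcript.
Ndufaf4: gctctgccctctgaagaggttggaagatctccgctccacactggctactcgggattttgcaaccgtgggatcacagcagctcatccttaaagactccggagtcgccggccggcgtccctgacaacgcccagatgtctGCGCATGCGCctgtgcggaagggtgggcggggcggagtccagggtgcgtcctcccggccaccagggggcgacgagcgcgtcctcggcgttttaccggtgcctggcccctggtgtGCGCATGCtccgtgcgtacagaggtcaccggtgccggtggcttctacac
Over all 32851 promoter windows of this length 2.71% held the NRF1 letters, and 12 of the 89 windows matched to 83 of the 100 genes did (13.5%). A match is a string of letters and does not show that the factor binds.

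Complex II, succinate dehydrogenase, had 3 subunits that were lower with LPS than with IFN-β (*Sdha*, *Sdhb* and *Sdhd*). With LPS 3 of its 4 subunits fell, and *Sdhc*, a membrane anchor, was at -0.15 ± 0.06 (adjusted p = 0.0576; 0.0362 with the replicate letter as a block). With IFN-β, *Sdhd* alone fell by TMM. *Sdha*, the flavoprotein that oxidises succinate, had 183, 181 and 178 CPM in unstimulated libraries, 150, 149 and 153 CPM with LPS and 176, 175 and 180 CPM with IFN-β. The LPS libraries were below the rest, and the IFN-β libraries overlapped the unstimulated ones. *Sdha* fell by 0.26 on the log2 scale with LPS (SE 0.05, adjusted p = 0.00115) and was at -0.03 ± 0.05 with IFN-β (adjusted p = 0.711), which was higher than LPS by 0.24 ± 0.05 (adjusted p = 0.00385).

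*Sdhb*, the iron-sulfur subunit of complex II, had 78.2, 74.4 and 67.2 CPM in unstimulated libraries, 54.2, 59.7 and 52.5 CPM with LPS and 79.8, 79.6 and 80 CPM with IFN-β. The IFN-β libraries all lay above the unstimulated ones but the difference did not pass the test (0.12 ± 0.07, adjusted p = 0.189), while LPS was lower (-0.40 ± 0.07, adjusted p = 5.4e-04). Between IFN-β and LPS, *Sdhb* differed by 0.53 ± 0.07 (adjusted p = 1.6e-04). *Sdhd*, the other membrane anchor, had 98.3, 97.6 and 94.5 CPM in unstimulated libraries, 67.1, 65.3 and 68.2 CPM with LPS and 76.8, 76.7 and 78.6 CPM with IFN-β. The groups of *Sdhd* did not overlap, with falls of 0.53 (SE 0.05, adjusted p = 5.3e-06) and 0.32 (SE 0.05, adjusted p = 5.6e-04), and it was 0.21 higher with IFN-β than with LPS (SE 0.05, adjusted p = 0.0069). All 4 subunits were lower with LPS by library size only, 3 were lower with IFN-β (against 1 by TMM), and all 4 were higher with IFN-β than with LPS, where the log2 difference of *Sdhb* was 0.80 (adjusted p = 4.8e-06). The summed RPKM of the 4 subunits was 76.1%, 77.1% and 76.3% of the unstimulated mean in LPS libraries A, B and C and 90.9%, 90.6% and 93% in the IFN-β libraries.

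The promoter of *Sdhb* is printed as the complex II subunit whose level with IFN-β lay furthest from that with LPS. Its window (RefSeq, GRCm38.p6, chr4:140961021-140961320, forward strand) holds the NRF1 letters once, beginning 54 bases before the start, marked in capitals.
Sdhb: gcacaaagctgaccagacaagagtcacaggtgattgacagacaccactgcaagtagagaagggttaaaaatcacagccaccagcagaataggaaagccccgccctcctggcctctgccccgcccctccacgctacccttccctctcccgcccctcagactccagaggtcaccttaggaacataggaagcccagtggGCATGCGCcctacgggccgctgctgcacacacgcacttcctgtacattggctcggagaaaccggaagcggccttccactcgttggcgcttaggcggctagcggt
Among the 3 windows of complex II subunits it was the only one with the NRF1 letters.

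Of the assembly factors of complex II, those that mature the iron-sulfur subunit *Sdhb* fell with LPS, while the factor that attaches the flavin to *Sdha* rose by TMM (0.25) but was lower by library size only (-0.34). *Sdhaf1*, needed for the iron-sulfur clusters of *Sdhb*, had 7.98, 8.56 and 7.38 CPM in unstimulated libraries, 3.26, 3.47 and 2.92 CPM with LPS and 4.01, 4.14 and 4.47 CPM with IFN-β. The groups were apart, with falls of 1.31 (SE 0.11, adjusted p = 2.1e-06) and 0.92 (SE 0.11, adjusted p = 7.9e-05) on the log2 scale. Its level is uncertain, because 68.3% of its exon sequence words of 100 bases occur in another gene. *Sdhaf3*, with the same role, had 1.88, 1.68 and 2.44 CPM in unstimulated libraries, 0.92, 1.02 and 1.29 CPM with LPS and 1.43, 1.14 and 1.08 CPM with IFN-β. It fell by 0.89 with LPS (SE 0.22, adjusted p = 0.00375) and by 0.71 with IFN-β (SE 0.21, adjusted p = 0.0169), a call lost without IFN-β library B or C or unstimulated library C. *Sdhaf4*, which binds the flavinated *Sdha*, fell with LPS (-0.55 ± 0.14, adjusted p = 0.00439) and with IFN-β passed only with the replicate letter as a block (-0.32, adjusted p = 0.0388 against 0.0743). The TMM value of *Sdhaf2*, the flavin factor, was 0.25 ± 0.06 with LPS (adjusted p = 0.00357), from 51.3, 50.2 and 48.6 CPM to 62.5, 58.8 and 56.6 CPM.

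Complex III had 4 of 9 subunits lower and 1 higher with LPS, and 5 lower and 0 higher with IFN-β. The count of 5 became 3 without IFN-β library A or B or without unstimulated library A or C. Scaled by library size, 8 were lower with LPS and 9 with IFN-β, and 0 were higher. The gene that rose by TMM was *Uqcrfs1*, which encodes the Rieske iron-sulfur protein that takes electrons from coenzyme Q. It lies at chr13:30540308-30545362 (GRCm38, reverse strand) and had 60.5, 61.2 and 62.4 CPM in unstimulated libraries, 103, 105 and 98.5 CPM with LPS and 52.1, 59.7 and 64.2 CPM with IFN-β. The LPS libraries were above all others, and the IFN-β libraries overlapped the unstimulated ones. *Uqcrfs1* rose by 0.73 ± 0.08 with LPS (adjusted p = 8.1e-06) and was at -0.07 ± 0.08 with IFN-β (adjusted p = 0.511), so that IFN-β was 0.80 lower than LPS (SE 0.08, adjusted p = 1.1e-05). By library size only the LPS change was 0.15 (adjusted p = 0.126) and the difference between IFN-β and LPS -0.52 (adjusted p = 3.4e-04).

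The other catalytic nuclear subunit of complex III, cytochrome c1 (*Cyc1*), went the other way. It had 50.7, 51.5 and 50.2 CPM in unstimulated libraries, 35.5, 41.7 and 37.5 CPM with LPS and 33.7, 41.5 and 44.1 CPM with IFN-β, and fell by 0.41 (SE 0.10, adjusted p = 0.00342) and 0.35 (SE 0.10, adjusted p = 0.0128). The small accessory subunits *Uqcr11* (-0.52 ± 0.08, adjusted p = 1.4e-04, and -0.39 ± 0.08, adjusted p = 0.002) and *Uqcr10* (-0.31 ± 0.11, adjusted p = 0.032, and -0.45 ± 0.11, adjusted p = 0.00816) fell with LPS and with IFN-β. The LPS call of *Uqcr10* was lost when any 1 of the LPS or unstimulated libraries was left out.

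Of the 13 subunits of complex IV, cytochrome c oxidase, 1 fell and 2 rose with LPS by TMM, with a median log2 fold change of 0.05, and with IFN-β 1 fell and 0 rose, with a median of -0.11. These small counts moved by 1 with the libraries used: 2 fell with LPS without LPS library C, 1 rose without unstimulated library B or C, and 2 fell with IFN-β without IFN-β library C or LPS library C. Scaled by library size, 12 of the 13 were lower with each stimulus and 0 higher. *Cox4i1*, the largest nuclear subunit, had 220, 200 and 190 CPM in unstimulated libraries, 212, 223 and 196 CPM with LPS and 180, 189 and 192 CPM with IFN-β, and the groups overlapped for each stimulus against unstimulated. *Cox7a2*, the ubiquitous isoform of subunit VIIa, had 66.2, 65.7 and 68.1 CPM in unstimulated libraries and 81.8, 78.3 and 81.7 CPM with LPS, a rise of 0.27 ± 0.08 by TMM (adjusted p = 0.00953) and a value of -0.31 by library size only. *Cox7c*, whose count is uncertain, rose by 0.20 ± 0.06 by TMM (adjusted p = 0.0166) and was at -0.38 by library size only, and the TMM call was lost without unstimulated library B or C. *Cox7a1*, the muscle isoform, had 0.912, 0.853 and 0.948 CPM in unstimulated libraries, 0.389, 0.35 and 0.829 CPM with LPS and 0.515, 0.372 and 0.663 CPM with IFN-β, and passed the test only with the replicate letter as a block (-0.81, adjusted p = 0.0186 with LPS against 0.0558, and -0.82, adjusted p = 0.0192 with IFN-β against 0.0612). *Cox7a2l*, the supercomplex factor, fell with IFN-β (-0.39 ± 0.09, adjusted p = 0.00367) and with LPS (-0.27 ± 0.09, adjusted p = 0.0148), the call with LPS being lost without LPS library C or unstimulated library A.

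The subunit of complex IV that fell with both stimuli was *Ndufa4*, which bears the name of a complex I gene. It had 14.1, 12.5 and 12.3 CPM in unstimulated libraries, 10.2, 8.19 and 8.94 CPM with LPS and 9.35, 10.4 and 9.67 CPM with IFN-β, and fell by 0.51 (SE 0.10, adjusted p = 9.6e-04) and 0.40 (SE 0.10, adjusted p = 0.00684). *AA467197* (*Nmes1*) is a paralog whose protein can take the place of *Ndufa4* in complex IV, and is outside the name rule. It had 72.7, 96 and 104 CPM in unstimulated libraries, 1132, 1011 and 1076 CPM with LPS and 302, 325 and 436 CPM with IFN-β. It rose by 3.56 ± 0.17 with LPS (adjusted p = 2.9e-08) and by 1.96 ± 0.16 with IFN-β (adjusted p = 6.8e-06), and its exons contain *Mir147*.

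The assembly factors of complex IV went both ways, and the enzymes of consecutive steps of heme A synthesis moved in opposite directions. *Cox10*, which attaches the farnesyl tail that turns heme B into heme O, had 13.7, 13.4 and 14.3 CPM in unstimulated libraries, 6.37, 7.69 and 7.1 CPM with LPS and 7.24, 8.87 and 8.87 CPM with IFN-β. Both stimulated groups were below the unstimulated one, with falls of 0.96 (SE 0.11, adjusted p = 1.2e-05) and 0.73 (SE 0.10, adjusted p = 2.5e-04) on the log2 scale. *Cox15*, which oxidises heme O to the heme A of complex IV, had 26.6, 24.5 and 24.9 CPM in unstimulated libraries, 55.9, 54.2 and 51.7 CPM with LPS and 39.7, 36.2 and 38.9 CPM with IFN-β. Its groups were apart, with rises of 1.09 ± 0.07 (adjusted p = 1.4e-07) and 0.59 ± 0.07 (adjusted p = 4.8e-05), and 0.51 (adjusted p = 1.5e-05) and 0.29 (adjusted p = 0.00207) by library size only. *Cox15* overlaps *Cutc* and *Entpd7* on the other strand, whose log2 fold changes were 1.22 and -0.44 with LPS, and the part of their reads was not tested.

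The promoters of *Cox10* and *Cox15* are set side by side because these neighbours in a pathway moved apart. Both windows (RefSeq, GRCm38.p6, reverse strand, chr11:64079423-64079722 and chr19:43752951-43753250) hold CCGGAAGT, the core of sites for ETS factors such as GABP, beginning 27 bases before the start in *Cox10* and at base 8 of the transcript in *Cox15*. Capitals also mark AAGATGGC, the YY1 letters, at base 22 of the *Cox10* transcript and a kappaB pattern (GGGA, 4 bases of any kind, CC) beginning 91 bases before the start of *Cox15*.
Cox10: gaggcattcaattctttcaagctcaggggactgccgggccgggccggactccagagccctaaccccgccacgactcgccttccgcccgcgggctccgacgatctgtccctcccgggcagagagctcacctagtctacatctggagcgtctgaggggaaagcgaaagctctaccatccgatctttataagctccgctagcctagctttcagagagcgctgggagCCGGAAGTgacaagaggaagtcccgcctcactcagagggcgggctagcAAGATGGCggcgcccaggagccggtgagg
Cox15: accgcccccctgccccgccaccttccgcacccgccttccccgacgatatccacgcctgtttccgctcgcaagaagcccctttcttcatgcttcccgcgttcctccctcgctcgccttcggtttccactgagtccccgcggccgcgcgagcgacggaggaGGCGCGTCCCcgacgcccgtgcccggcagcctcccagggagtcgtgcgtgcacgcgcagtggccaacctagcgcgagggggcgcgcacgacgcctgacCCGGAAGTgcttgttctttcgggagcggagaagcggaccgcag
The ETS letters were in 4 of the 7 windows of complex IV assembly factors (*Cox10*, *Cox14*, *Cox15* and *Cox16*), in 9 of all 89 windows of the 100 genes (10.1%) and in 3.89% of all promoter windows. Of those 4 genes *Cox15* rose, *Cox10* fell and *Cox14* and *Cox16* did not pass the test with either stimulus. No window was matched to *Cox17* or *Cox18*, which also rose by TMM, so their promoters were not searched. *Cox16* is counted with each of its windows.

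*Cox18*, which inserts a domain of mitochondrially encoded subunit Co2 into the inner membrane, had 6.16, 6.33 and 7.4 CPM in unstimulated libraries, 15.7, 15.4 and 16.3 CPM with LPS and 10.7, 11.2 and 12.4 CPM with IFN-β. The groups did not overlap, with rises of 1.25 ± 0.10 (adjusted p = 7.4e-07) and 0.79 ± 0.10 (adjusted p = 8.8e-05), and 0.67 and 0.48 by library size only. *Cox17*, the copper chaperone that hands copper to *Sco1* and *Cox11*, had 11.1, 11.7 and 12.5 CPM in unstimulated libraries, 22.4, 22.8 and 22.4 CPM with LPS and 15.2, 14.1 and 15.7 CPM with IFN-β. It rose by 0.93 ± 0.07 (adjusted p = 1.0e-06) and 0.35 ± 0.07 (adjusted p = 0.00312), the latter being 0.04 by library size only (adjusted p = 0.739). *Gm21987* overlaps it on the same strand, at 0.03 CPM in unstimulated DCs, and the count of *Cox17* is treated as uncertain. *Cox11* was at -0.01 ± 0.09 with LPS (adjusted p = 0.952), *Cox14* at 0.05 ± 0.09 (adjusted p = 0.638) and *Cox19* at -0.19 ± 0.12 (adjusted p = 0.18). *Cox19*, another copper factor, fell with IFN-β (-0.32 ± 0.12, adjusted p = 0.0435), a call lost without IFN-β library A or C, LPS library B or unstimulated library A or B.

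**Figure D3:**
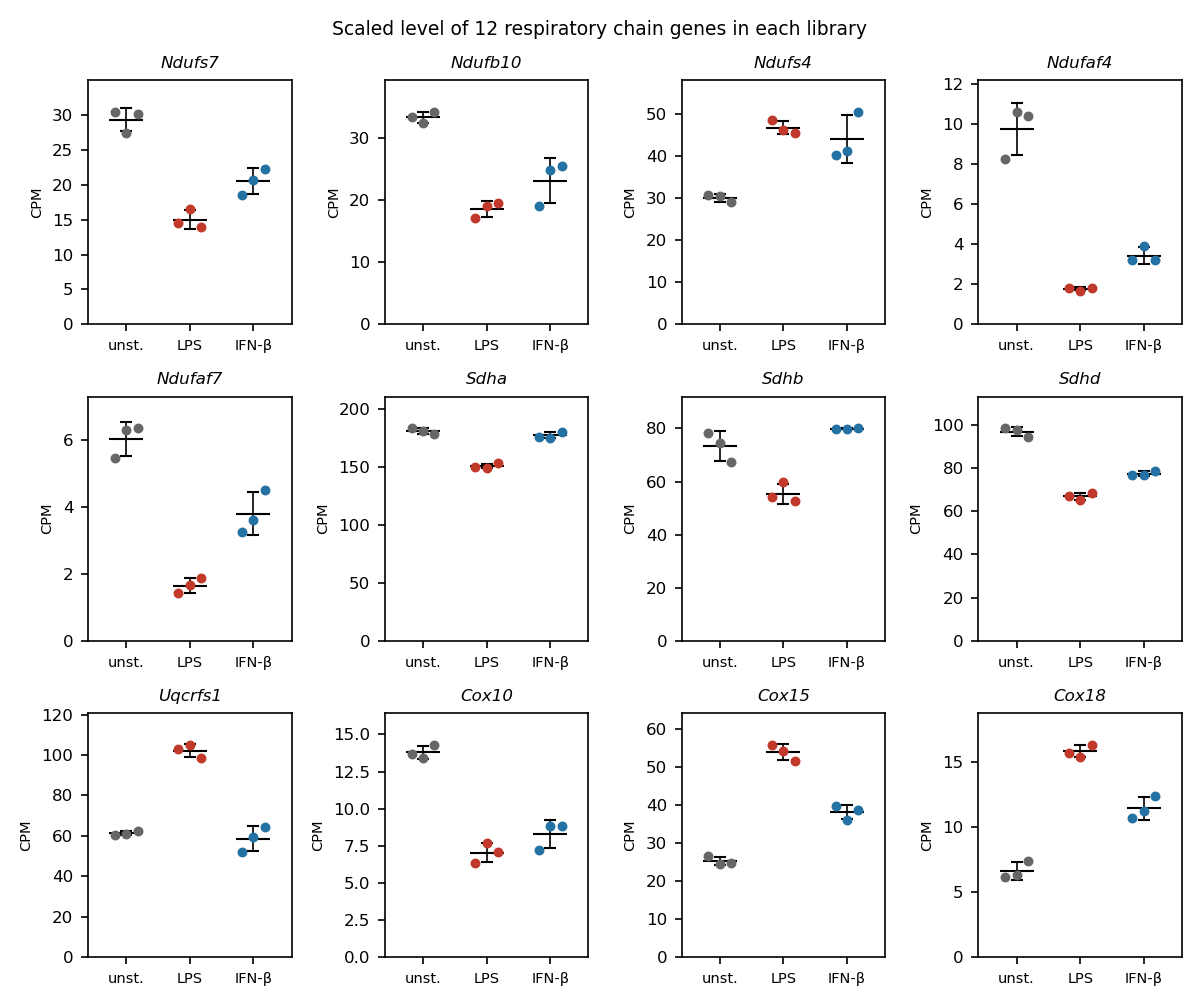
CPM after TMM scaling (y axis, from 0, one scale per gene) of 12 genes in unstimulated, LPS and IFN-β libraries (x axis), with points for libraries A, B and C from left to right, a bar for the mean and whiskers for the SD (n = 3). *Ndufaf4* fell from 8.23 to 10.6 CPM to 1.69 to 1.84 CPM with LPS, *Cox10* and *Cox15* moved in opposite directions, and *Sdhb* with IFN-β lies at 79.6 to 80 CPM against 67.2 to 78.2 CPM unstimulated, a difference that did not pass the test; by library size only, the rises of *Uqcrfs1* and *Ndufs4* with LPS did not pass the test.

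In complex V, ATP synthase, 7 of 17 subunits fell and 1 rose with LPS, and 5 fell and 1 rose with IFN-β. With the replicate letter as a block, 9 fell with IFN-β, and without IFN-β library C 10 fell. The 1 that rose with LPS became 2 without LPS library B. Library size scaling gave 16 of the 17 lower with each stimulus and 0 higher. The catalytic beta subunit, *Atp5b*, had 579, 602 and 601 CPM in unstimulated libraries, 603, 659 and 627 CPM with LPS and 511, 559 and 588 CPM with IFN-β, and did not pass the test (0.08 ± 0.08, adjusted p = 0.344, and -0.10 ± 0.08, adjusted p = 0.291). Its partner *Atp5a1*, the alpha subunit, was at -0.17 ± 0.07 with LPS with an adjusted p that rounds to 0.05, a call that was lost in 8 of 9 fits with 1 library left out. The delta subunit *Atp5d* fell with both stimuli (-0.31 ± 0.07, adjusted p = 0.00251, and -0.33 ± 0.07, adjusted p = 0.00343). The gamma subunit *Atp5c1*, the rotor shaft, fell with LPS (-0.18 ± 0.06, adjusted p = 0.0208), a call lost without LPS library B or unstimulated library C, and did not pass with IFN-β (adjusted p = 0.977). The epsilon subunit *Atp5e* was at -0.22 ± 0.08 with IFN-β (adjusted p = 0.0505; 0.0239 with the replicate letter as a block).

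The membrane ring of ATP synthase is built from subunit c, and 3 genes encode the same mature protein. All 3 fell with both stimuli, and they did so in the order *Atp5g1*, *Atp5g2*, *Atp5g3*. *Atp5g1* had 53.6, 57.4 and 60.4 CPM in unstimulated libraries, 33.8, 35.7 and 37.1 CPM with LPS and 35.5, 38.1 and 45.3 CPM with IFN-β, without overlap between stimulated and unstimulated libraries. It fell by 0.68 (SE 0.09, adjusted p = 6.0e-05) and 0.53 (SE 0.09, adjusted p = 8.7e-04). *Atp5g2*, which shares reads with copies, fell by 0.40 (SE 0.09, adjusted p = 0.00169) and 0.36 (SE 0.08, adjusted p = 0.00508). *Atp5g3*, the copy with the highest level per length (55.4 RPKM against 16.3 for *Atp5g2* and 11.6 for *Atp5g1* in unstimulated DCs), fell by 0.23 (SE 0.06, adjusted p = 0.00429) and 0.31 (SE 0.06, adjusted p = 0.00128). Differences between these copies were not tested. *Atp5md*, a small subunit at the dimer interface, had 47.2, 50 and 48.8 CPM in unstimulated libraries and 59.3, 62.7 and 67.2 CPM with LPS, a rise of 0.37 ± 0.09 by TMM (adjusted p = 0.00267) and a value of -0.21 by library size only. *Atp5pb*, the stator subunit b, rose with IFN-β by 0.22 ± 0.06 by TMM (adjusted p = 0.0165), which is -0.09 by library size only, and the TMM call was lost without IFN-β library C or unstimulated library C. With LPS it was at 0.14 ± 0.06 (adjusted p = 0.0623; 0.0422 with the replicate letter as a block).

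The difference between the stimuli was tested directly. Relative to LPS, IFN-β gave 19 of the 100 genes a higher and 14 a lower level, where 25.8% of all tested genes were higher and 23.3% lower, and with the replicate letter as a block 19 were lower (27.6%). The count of 19 higher became 9 without IFN-β library C and 12 without LPS library A, and the count of 14 lower became 9 without IFN-β library A and 8 without IFN-β library B. Shares of all tested genes are not given for fits with a library left out. By library size only, 53 of the 100 genes were higher and 3 lower (43.2% and 12.3% of all tested genes). By TMM the higher genes were 11 of complex I, 3 of complex II, 1 of complex V and 4 assembly factors, and the lower ones 2 of complex I, 1 of complex III, 5 of complex IV, 2 of complex V and 4 assembly factors. The 11 of complex I became 3 without IFN-β library C, 5 without LPS library A and 6 without IFN-β library B. Library size scaling gave 24 of complex I higher and 0 lower, and 2 of complex IV higher and 0 lower. The 5 of complex IV became 2 without IFN-β library A or B and 3 without LPS library A or B or unstimulated library B or C. The 2 lower of complex V became 6 without IFN-β library C and 1 without IFN-β library A or B, LPS library A or B or unstimulated library B or C, and its 1 higher became 2 without IFN-β library A and 0 without IFN-β library B or C or LPS library A or B. The 2 lower of complex I became 1 without IFN-β library A or B, LPS library B or unstimulated library B, and the 1 of complex III became 2 without IFN-β library C. With the replicate letter as a block, *Cox6a1* (-0.24, adjusted p = 0.0214 against 0.0912), *Atp5b* (-0.19, 0.0182 against 0.0621), *Atp5e* (-0.20, 0.0381 against 0.0709) and *Cox4i1* (-0.17, 0.043 against 0.0825) were also lower with IFN-β than with LPS, and *Cox10* (0.23, 0.0488 against 0.0927) and *Atp5g1* (0.15, 0.0391 against 0.185) higher.

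Of the genes that passed the test, *Ndufaf7* (1.19 ± 0.17, adjusted p = 1.8e-04), *Ndufaf4* (0.95 ± 0.15, adjusted p = 4.0e-04) and *Sdhb* were furthest above LPS with IFN-β, and *Uqcrfs1*, *Cox17* (-0.59 ± 0.07, adjusted p = 7.7e-05) and *Cox15* (-0.49 ± 0.07, adjusted p = 1.1e-04) furthest below. By library size only, *Ndufaf7* and *Ndufaf4* were at 1.46 and 1.23 and *Cox17* and *Cox15* at -0.31 and -0.22, all past the threshold. *Cox18* was 0.47 lower by TMM (SE 0.09, adjusted p = 0.00177) and at -0.19 by library size only (adjusted p = 0.159). *Ndufs7* was 0.45 higher with IFN-β than with LPS (SE 0.09, adjusted p = 0.0024). *Cox7a2* and *Cox7c* were both 0.31 lower (SE 0.08 and 0.06, adjusted p = 0.00808 and 0.00249), but at -0.03 by library size only. The counts of *Cox7c* and *Cox17* are uncertain.

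**Figure D4:**
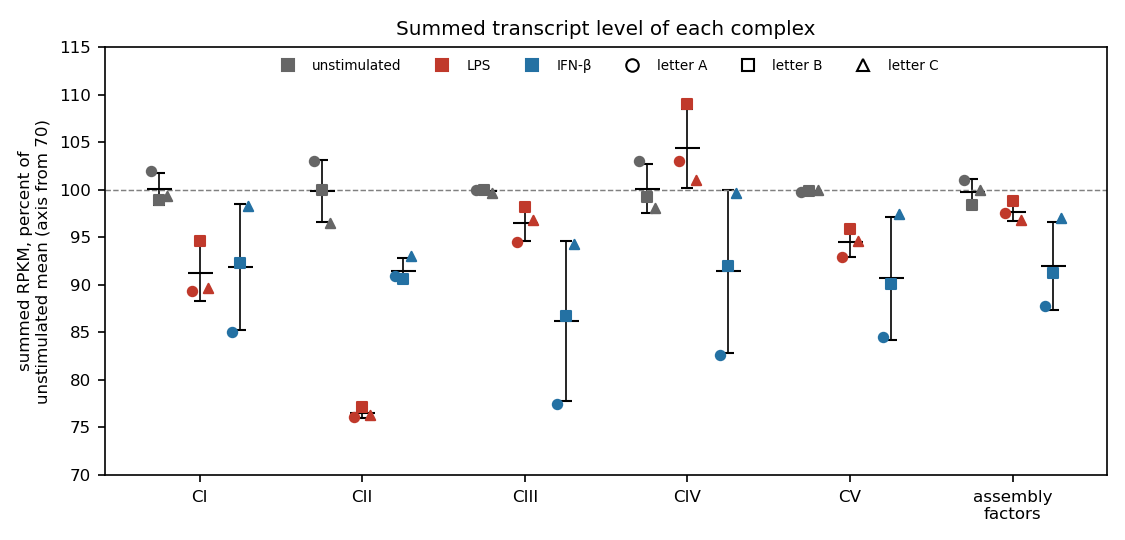
Summed RPKM of each class (x axis) in each library as a percent of the mean of the unstimulated libraries (y axis, which starts at 70), TMM scaling, with markers for the letters A, B and C, a bar for the mean and whiskers for the SD (n = 3). Complex II with LPS is at 76.1% to 77.1% and complex IV with LPS at 101% to 109%, and IFN-β library A is the lowest IFN-β library in complexes I, III, IV and V and the assembly factors; by library size only, levels with either stimulus would lie lower in relation to unstimulated ones.

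Summed over their subunits, the complexes kept most of their transcript level by TMM, that is, relative to the bulk of genes. By library size only, levels with either stimulus would lie lower in relation to unstimulated ones, and no sums are given for that scaling. As a share of all counts, the 100 genes took 0.653% to 0.688% in unstimulated DCs and 0.402% to 0.446% with LPS. Complex I was at 91.2% ± 2.97 (SD, n = 3) of the unstimulated mean with LPS and 91.9% ± 6.67 with IFN-β, complex III at 96.5% ± 1.91 and 86.2% ± 8.46, complex IV at 104% ± 3.93 and 91.4% ± 8.54, and complex V at 94.5% ± 1.49 and 90.7% ± 6.51. Complex II was at 76.5% ± 0.556 with LPS, the lowest of these sums, and at 91.5% ± 1.32 with IFN-β, among the other complexes. Without IFN-β library A, the sums with IFN-β were 95.3% for complex I, 91.8% for complex II, 90.5% for complex III, 95.8% for complex IV, 93.8% for complex V and 94.1% for the assembly factors. Differences between complexes were not tested. The assembly factors summed to 97.7% ± 1.04 with LPS, although 9 of 20 fell. By TMM *Cox15*, *Cox17*, *Cox18* and *Sdhaf2* rose, and *Cox14*, the factor with the highest level, did not pass the test. The part of each factor in this sum was not worked out. As a median of log2 fold changes relative to that of all tested genes, assembly factors were at -0.33 with LPS and -0.28 with IFN-β and all subunits together at -0.11 and -0.14. No test of the difference between these classes was made.

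Respiratory chain genes with other names were taken from a fixed list. Over all tested genes, 35.4% were lower and 32.8% higher with LPS and 23.3% and 23.6% with IFN-β. With LPS, 9 of 11 further genes of complex I fell and 2 rose, 5 of 6 assembly factors of complex III fell and 0 rose, and 9 of 15 tested further factors of complex IV fell and 2 rose. With IFN-β the counts were 6 lower and 1 higher, 4 lower and 0 higher, and 6 lower and 2 higher. By library size only they were 10 lower and 1 higher, 6 and 0, and 13 and 2 with LPS, where 60.9% of all tested genes were lower and 17.1% higher. *Ecsit* (-1.62 ± 0.17, adjusted p = 8.7e-06) and *Tmem126b* (-1.44 ± 0.11, adjusted p = 8.4e-07), which act with *Ndufaf1* in building the membrane arm of complex I, fell with LPS. *Bcs1l*, which moves the Rieske protein into complex III, had 3.88, 3.93 and 4.26 CPM in unstimulated libraries, 1.1, 1.17 and 0.799 CPM with LPS and 1.71, 1.94 and 1.93 CPM with IFN-β, and *Lyrm7*, the chaperone of that protein, had 0.735, 0.719 and 1.31 CPM, 0.212, 0.175 and 0.184 CPM and 0.492, 0.451 and 0.442 CPM. Both fell with LPS (-1.98 ± 0.17, adjusted p = 1.7e-06, and -2.27 ± 0.34, adjusted p = 1.3e-04), where the Rieske gene *Uqcrfs1* itself rose by TMM.

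*Sco1*, a copper chaperone that acts after *Cox17*, had 11.5, 12.5 and 11.6 CPM in unstimulated libraries, 82.9, 62.5 and 67.8 CPM with LPS and 43.1, 34 and 42.4 CPM with IFN-β. It rose by 2.58 ± 0.12 (adjusted p = 3.1e-08) and 1.75 ± 0.12 (adjusted p = 2.8e-06), while its paralog *Sco2*, which shares 82.8% of its sequence words with other genes, fell with LPS (-1.27 ± 0.32, adjusted p = 0.00464). Cytochrome c itself, *Cycs*, had 43.2, 46.2 and 41.8 CPM in unstimulated libraries, 129, 122 and 111 CPM with LPS and 79.5, 86.2 and 90.9 CPM with IFN-β, with rises of 1.46 ± 0.08 (adjusted p = 6.1e-08) and 0.97 ± 0.08 (adjusted p = 6.4e-06). *Cycs* shares 24.7% of its sequence words with other genes, so its level is uncertain. Of 4 further complex V genes, 2 fell and 1 rose with LPS, where *Tmem70*, an assembly factor, rose by 0.77 ± 0.07 (adjusted p = 4.2e-06), which is 0.18 by library size only. In coenzyme Q synthesis 7 of 10 genes fell and 3 rose with LPS, where 35.4% of all tested genes fell and 32.8% rose. With IFN-β 4 fell and 2 rose, where 23.3% fell and 23.6% rose. Of the 3 genes of the electron transfer flavoprotein and its dehydrogenase, 2 fell and 1 rose with each stimulus. No gene of these 2 lists rose by library size only (0 of 13), where 17.1% of all tested genes rose with LPS and 13.2% with IFN-β.

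**Figure D5:**
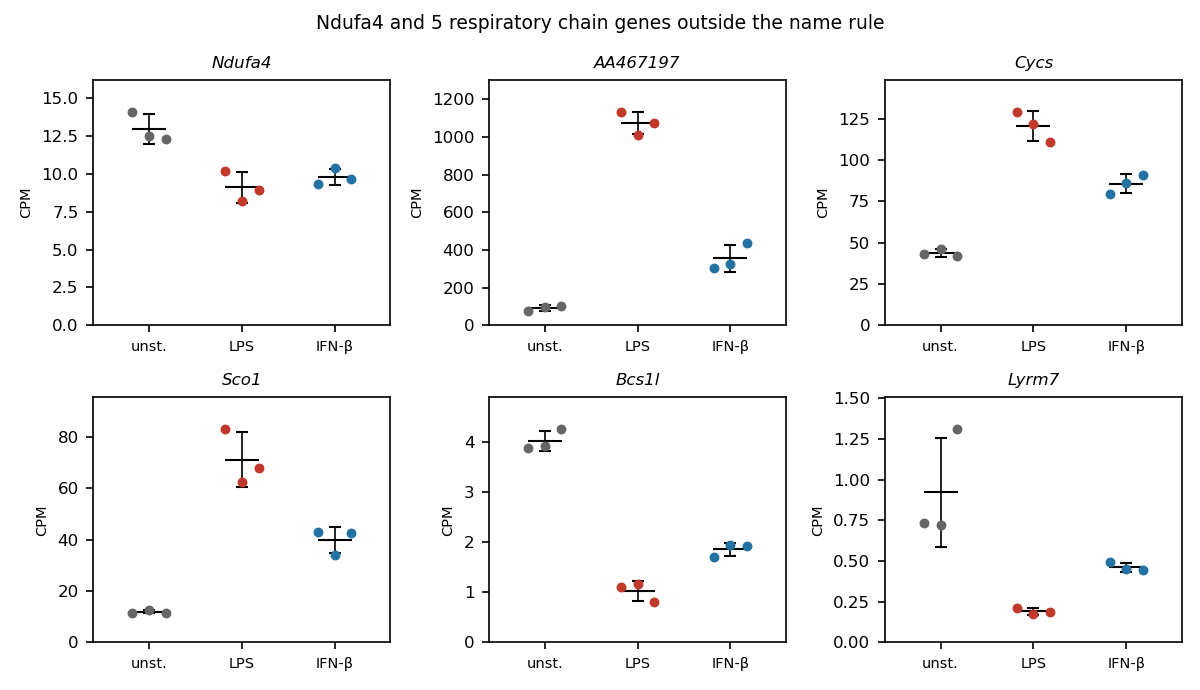
CPM after TMM scaling (y axis, from 0, one scale per gene) of *Ndufa4* and 5 respiratory chain genes outside the name rule in unstimulated, LPS and IFN-β libraries (x axis), with points for libraries A, B and C from left to right, a bar for the mean and whiskers for the SD (n = 3). *AA467197*, *Cycs* and *Sco1* are highest with LPS, *Bcs1l* and *Lyrm7* lowest with LPS, and *Ndufa4* is lower with both stimuli than without; these directions are the same by library size only.

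Of the 13 mitochondrially encoded subunits, 10 were tested, and 6 were higher and 0 lower with LPS, 2 higher and 0 lower with IFN-β, where 32.8% and 23.6% of all tested genes were higher. By library size only, 0 of the 10 passed the threshold in either direction with either stimulus. The median log2 fold changes by TMM were 0.45 and 0.21. The LPS libraries varied most: *mt-Co1*, the catalytic subunit of complex IV, had 3540, 3617 and 3854 CPM in unstimulated libraries and 5418, 4390 and 6598 CPM with LPS (0.58 ± 0.14, adjusted p = 0.00357). *mt-Co1* and *mt-Nd4*, both among the 6, share 30.8% and 60.8% of their sequence words with other genes, so their levels are uncertain. The counts of *mt-Co2*, *mt-Co3* and *mt-Atp6* were near 0 in every library, at most 1.03 CPM, and these genes share 99.5%, 99.9% and 99.5% of their sequence words with other genes, so their levels are not read here. The medians above still include these genes. One of the 2 calls with IFN-β was *mt-Atp6*, the other *mt-Nd6* (0.66 ± 0.15, adjusted p = 0.00435).

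In the promoter windows, the YY1 letters AAGATGGC were found in 12 of 89 windows (13.5%) against 2.75% of all windows, the letters of the estrogen-related receptors, AAGGTCA, in 8 (8.99%) against 4.72%, and the kappaB pattern in 20 (22.5%) against 20.7%. Both strands were searched, and matches of different motifs do not overlap in the windows printed above. The YY1 letters were in 7 of 34 windows of complex I subunits, among them *Ndufs4*, which rose, and *Ndufs7*, which fell, and in 0 of 10 windows of complex IV subunits. In the 150 bases before the start the YY1 share was 1.12% against 0.861%, so that most of these matches lie outside that shorter window, while the NRF1 share was 7.87% against 1.82% and the ETS share 5.62% against 2.4%. In that shorter window the kappaB share was 11.2% against 11.9%. Windows of the 100 genes were not compared with other windows by a test.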

How the data were processed

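Total RNA from 3 unstimulated, 3 LPS and 3 IFN-β samples was depleted of ribosomal RNA and made into libraries by the submitters (KAPA RNA HyperPrep). The deposited counts are raw read counts per gene, which the authors obtained by trimming (Trim Galore 0.6.0) and alignment to GRCm38/mm10 with STAR (2.7.8a per the submitters' processing notes), counting reads with STAR's own gene counter on a GENCODE annotation. The strand setting is not given in the sources used here, so it is not known how reads of overlapping genes on opposite strands were counted or whether they were left out. Overlapping exons on the other strand occur in 35 of the 100 genes, on the same strand in 7, and 15 share over 10% of their 100-base exon words with another gene. Reads of such copies can be lost from the counts, and 19 genes are treated as uncertain. Among those named above, these include *Atp5g2*, *Cox7c*, *Cox11*, *Cox16*, *Cox17*, *Ndufaf2*, *Ndufs3* and *Sdhaf1*. Of 55471 gene IDs, 55230 matched GENCODE M21, which gave exon lengths and overlaps and may differ from the release the authors used. Totals were 33425803 to 43735199 counts per library and the limit that a count of 0 allows covers counting error alone.

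Groups came from the treatment labels. Genes were kept by edgeR's filterByExpr, and a quasi-likelihood model of the 3 groups over all 9 libraries (edgeR 4.0.16, limma 3.58.1, R 4.3.3, TMM factors) gave log2 fold changes, standard errors and Benjamini-Hochberg adjusted p over 16260 genes, with 0.05 as the threshold. A standard error is the log2 fold change divided by the square root of the test's F value. On data simulated for LPS against unstimulated, with 196 of 15970 genes changed by 1.5-fold, 43.4% were recovered and 4.49% of calls were false. In the real data 35.4% of tested genes were lower and 32.8% higher with LPS, far more than were changed in the simulation. The share recovered therefore does not give the sensitivity of the reported fit. CPM use TMM factors, and RPKM divide CPM by the exon union length. Replicate pairs of a group differed beyond sampling noise (chi-square per degree of freedom 13.49 to 37.6), and all 9 were counted as separate samples. That spread does not show whether they are separate cultures or mice.

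The letters A, B and C were taken to pair the samples from the data: deviations from group means correlated at 0.134 to 0.546 in all 9 same-letter pairs and at -0.48 to 0.062 in 18 other pairs. Deviations cancel within a group, so low values in the other pairs follow in part from positive ones in same-letter pairs. The other pairs are therefore not separate evidence of pairing. A fit with the letter as a block was an alternative, as were DESeq2 1.42.0, other scalings and filters, a stricter threshold and each library left out in turn.

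Genes named are the complex II subunits, the catalytic cores, isoform pairs, the 2 members of each class that moved most in each direction in each comparison, and genes whose call an alternative changed where the text leads with them. Other assembly factors and the genes of other lists were named after their values were seen. The members and lists were chosen with earlier results of these data known. The names of the 100 genes follow the count table, and 1 of them is counted but not reported by itself here. Promoter windows are from RefSeq (GRCm38.p6), matched for 83 of the 100.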

Additional observations from a re-analysis of the deposited data

How the results depend on the processing

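By library size only, which moves all genes together, 92 of the 100 genes were lower and 3 higher with LPS, 91 lower and 3 higher with IFN-β, and 53 higher and 3 lower with IFN-β than with LPS. With LPS this turned the sign of *Atp5b* (-0.50), *Atp5l* (-0.56), *Atp5md* (-0.21), *Atp5pb* (-0.44), *Cox4i1* (-0.53), *Cox6a1* (-0.51), *Cox6b1* (-0.52), *Cox7a2* (-0.31), *Cox7c* (-0.38), *Cox8a* (-0.58), *Ndufa1* (-0.32) and *Sdhaf2* (-0.34), as log2 fold changes. With IFN-β it turned *Atp5md* (-0.26), *Atp5pb* (-0.09), *Ndufa1* (-0.24), *Ndufb1* (-0.01), *Ndufs3* (-0.30) and *Sdhaf2* (-0.24). Between IFN-β and LPS it turned *Atp5d* (0.26), *Atp5g3* (0.20), *Atp5l* (0.07), *Cox6b1* (0.08), *Ndufa1* (0.07), *Ndufv1* (0.25) and *Sdhaf2* (0.09). No other alternative turned the sign of a named value that passed the test in either fit, and with DESeq2 6 named calls were lost. The shift of the median of all genes under this scaling is by its own construction. With the replicate letter as a block, which pairs the samples, 47 genes were lower with IFN-β and 19 lower with IFN-β than with LPS, 9 calls were gained with LPS, 14 with IFN-β and 8 between the stimuli, and 0 were lost. The count lower with IFN-β was 51 with upper-quartile factors, 17 at an adjusted p of 0.01 and 20 to 40 with 1 library left out. Of genes higher with IFN-β than with LPS there were 9 at an adjusted p of 0.01 and 9 to 20 with 1 library left out, and of genes lower 8 without a filter on low counts, 8 with only the groups compared, 8 at an adjusted p of 0.01 and 8 to 21 with 1 library left out. Shares of all tested genes are not given for upper-quartile factors, the stricter threshold, these filters or fits with a library left out. Class medians relative to all genes moved by more than the spread between letters as follows. Core subunits alone gave -0.25 for complex I and 0.20 for complex III with LPS, 0.06 for complex II with IFN-β, and 0.36 for complex II and -0.39 for complex III between IFN-β and LPS. Without a filter, assembly factors were at -0.39 with LPS and -0.30 with IFN-β and complex II at 0.24 between the stimuli, where 10 counts in every library and only the groups compared each gave 0.22. Without the genes of uncertain reads, an alternative chosen after seeing the data, as were the counts per complex with 1 library left out and the summed levels without IFN-β library A, assembly factors were at -0.42 with LPS. With 1 library left out, assembly factors ranged from -0.37 to -0.30 with LPS and from -0.31 to -0.19 with IFN-β, and complex II from 0.19 to 0.22 between the stimuli. The cause of these differences was not tested beyond the construction of each alternative. Of 88 calls of named genes, 20 were lost without some library. Depth limits the muscle isoforms, *Cox6a2* and *Cox7a1*, whose SE with LPS was 0.42 and 0.33 on the log2 scale.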
